A study of Arabidopsis thaliana with 36 samples.

Results

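The comparison set 3 libraries of Arabidopsis thaliana rosettes taken 3 h after 100 cGy of gamma rays against 3 libraries taken 3 h after 10 cGy, out of 36 libraries in the series. Col-0 plants, the standard laboratory accession, grew for 4 weeks in short days of 8 h light and 16 h dark at 22 °C. They stood in a 137Cs irradiator that delivered 1.4 cGy per second, for 71 s in the higher and 7 s in the lower dose group. Both groups thus share genotype, age and growth conditions and differ in the length of exposure. Mock plants of the same time, which were not exposed, gave 3 more libraries that are shown for reference. Poly(A) RNA of the whole rosette was sequenced, so every tissue of the rosette is mixed in each value. Nothing in the labels ties replicates to separate plants or exposures, and the p-values reflect only how these libraries vary, which may be technical. Of 33977 genes in the table, 18875 reached a level of 1 in counts per 1000000 counts of the library (CPM) in at least 3 of the 36 libraries and are described here. Each difference is the mean of log2(CPM + 0.5) at 100 cGy minus that at 10 cGy, with its standard error (SE), from limma fitted to all 36 libraries; it understates the change of weakly expressed genes. A gene was called where its Benjamini-Hochberg adjusted p over all 18875 genes was below 0.05.

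Gamma rays break DNA strands, and plants answer breaks through the kinases ATM and ATR and the plant NAC transcription factor SOG1, which turns on genes of DNA repair, nucleotide supply and cell cycle arrest. The rosette also changes many transcripts through the day by its circadian clock, and transcripts of cold, touch, immunity and heat stress respond quickly to the surroundings.

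The count and direction of calls depended on how libraries were scaled. With CPM as deposited, 2217 genes were higher and 155 lower at 100 cGy, which is 11.7% and 0.821% of the genes tested, and 5512 genes had an unadjusted p under 0.05. The median difference of all genes was 0.11, so a gene that did not move relative to the rest would read as slightly higher. After libraries were rescaled by median ratios, which set the typical gene of each library to the same level, the median was -0.01 and 318 genes were higher (1.68%) and 596 lower (3.16%). Genes called in the same direction under both scalings numbered 318 higher (1.68%) and 154 lower (0.816%), and no gene was called in opposite directions. In 289 of the 318 higher genes the mean of mock lay between both doses, with medians of -0.17 for 10 cGy minus mock and 0.31 for 100 cGy minus mock. Of the 154 lower genes, 83 had mock between the doses and 64 were below mock at both doses. These values share the dose libraries that chose the genes and are a description. Counted without any test, 4523 genes (24.0%) had all 3 libraries of 100 cGy above all 3 of 10 cGy, and 610 (3.23%) had them all below. With only the 6 libraries of the comparison in the fit, limma called 5 higher and 0 lower (3983 genes had an unadjusted p under 0.05). The calls therefore rest on the spread of each gene over all 12 groups.

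Libraries 2 and 3 of 100 cGy stood apart in composition. The 100 most abundant transcripts took 25.1% and 25.3% of their CPM, the lowest shares among all 36 libraries, against 28.0% in library 1 of 100 cGy and 28.0% to 28.7% in the 10 cGy libraries. Median-ratio factors ran from 1.00 to 1.11 in the 100 cGy group and from 0.965 to 0.983 in the 10 cGy group. The difference between doses moved with expression level: its median was 0.16 in the second octile of mean level and 0.02 in the top octile. Library 1 of 10 cGy stood apart in another way, with the highest shares of chloroplast (0.608%), mitochondrial (0.0131%) and ENSRNA (0.435%) transcripts among all 36 libraries. Depth, read from the step between CPM values, was 22.1 M to 33.3 M (M, 1000000 counts) in these 6 libraries, and library 1 of 100 cGy was the shallowest of the series at 22.1 M. A count of 3 stands for 0.0901 to 0.136 CPM there, a floor that covers counting error only. Without library 2 of 100 cGy, 392 genes were called higher and 35 lower, and without library 3 the numbers were 1054 and 104. Without library 1 of that group they were 4070 and 272. Leaving out library 1 or 2 of 10 cGy gave 1259 and 87 or 764 and 58. The 129 named genes include all 45 whose call held without any 1 of these 6 libraries under both scalings. These 45 could not lose their call here, so the next counts do not describe called genes in general. Of the 129, 54 lost their call with CPM without library 2 of 100 cGy and 36 without library 3 of 100 cGy. Without library 2 of 10 cGy 43 lost it, and without library 1 of 10 cGy 30 did. How far composition sets the small differences was not tested. Counts per list and many single genes are given under both scalings below, and marker sums with CPM only.

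**Figure D1:**
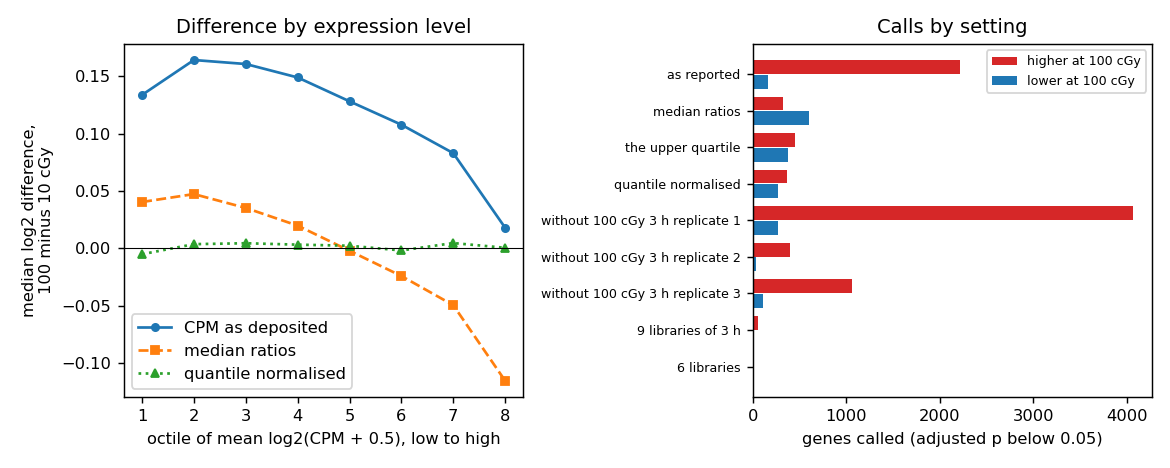
Left, median log2 difference (100 minus 10 cGy at 3 h) of the tested genes in 8 classes of mean log2(CPM + 0.5), under 3 scalings; with CPM it runs from 0.13 in the lowest octile through 0.16 to 0.02 in the highest. Right, number of genes called higher (red) and lower (blue) at 100 cGy under each setting, from 2217 and 155 with CPM to 5 and 0 in the fit of 6 libraries.

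Of the DNA damage response list, 18 of 23 genes passed the filter on low values. Of these 18 members of the list, 10 were called higher and none lower with CPM, against 11.7% of all genes called higher. After median-ratio rescaling 6 were higher, against 1.68% of all genes, among them PARP2, XRI1, TRFL10, ATRAD17 and TK1a. The median difference of the list was 0.43, against 0.11 for all genes, and 0.31 against -0.01 after rescaling. Of the 18, 12 had all 3 libraries of 100 cGy above those of 10 cGy, as had 24.0% of all genes. At 10 cGy the same transcripts lay close to mock, with a median difference from mock of -0.05, while at 100 cGy it was 0.36. These 2 values share the mock libraries. In whole rosettes, more RNA per cell and more cells with that RNA cannot be told apart.

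PARP2 (AT4G02390), which encodes a poly(ADP-ribose) polymerase that marks broken DNA, had 7.34, 7.20 and 8.89 CPM at 10 cGy and 18.1, 21.4 and 20.2 CPM at 100 cGy. Mock libraries had 8.17, 7.89 and 6.97 CPM and overlapped with the lower dose. The mean was thus 2.55 times higher at 100 cGy, with a log2 difference of 1.30 (SE 0.12, adjusted p = 3.59e-07) and of 1.17 after rescaling (adjusted p = 1.44e-06). It was 1 of the 5 genes called in the fit of 6 libraries. XRI1 (AT5G48720), an X-ray induced gene needed in meiosis and in repair, had 6.31, 6.06 and 7.11 CPM at 10 cGy and 11.3, 13.1 and 14.2 CPM at 100 cGy. Mock libraries had 7.49, 6.95 and 7.51 CPM, so here the 10 cGy group sat at or just below mock. The difference was 0.93 (SE 0.09, adjusted p = 7.97e-07), and 0.81 after rescaling (adjusted p = 2.28e-06). TRFL10 (AT5G03780), a gene for a TRF-like protein with a telomere-repeat binding type of domain, had 3.12, 3.48 and 3.83 CPM at 10 cGy and 5.83, 8.03 and 6.73 CPM at 100 cGy. The groups did not overlap, and the difference was 0.88 (SE 0.12, adjusted p = 0.000116).

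ATRAD17 (AT5G66130), a loader of the damage checkpoint clamp, differed by 0.59 (SE 0.14, adjusted p = 0.00645), with 4.52 to 6.02 CPM at 10 cGy and 6.74 to 8.78 CPM at 100 cGy, and its adjusted p was 0.0507 without library 2 of 100 cGy. After rescaling its call was lost without library 1 or 2 of 10 cGy or without library 2 or 3 of 100 cGy (highest adjusted p = 0.153). TK1a (AT3G07800), a thymidine kinase of nucleotide salvage, had 12.3, 12.3 and 13.6 CPM at 10 cGy and 17.7, 16.4 and 20.5 CPM at 100 cGy. This small rise of 0.50 (SE 0.07, adjusted p = 0.000199) stayed called when any 1 of the 6 libraries was left out, under both scalings, as did those of PARP2, XRI1 and TRFL10.

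Other members of the pathway were called only with CPM as deposited. TSO2 (AT3G27060), the small subunit of ribonucleotide reductase, had 61.8, 53.1 and 64.0 CPM at 10 cGy and 84.3, 73.7 and 82.9 CPM at 100 cGy. Mock libraries had 81.6, 74.2 and 65.0 CPM, so its 10 cGy libraries lay below mock. The difference was 0.43 (SE 0.09, adjusted p = 0.00281) with CPM and 0.29 after rescaling (adjusted p = 0.0565). PARP1 (AT2G31320), another poly(ADP-ribose) polymerase gene, differed by 0.31 (SE 0.07, adjusted p = 0.00650) with CPM and by 0.18 after rescaling (adjusted p = 0.123). GMI1 (AT5G24280), a gamma-ray induced gene for a protein of homologous recombination, differed by 0.60 (SE 0.17, adjusted p = 0.0198) and, after rescaling, by 0.47 (adjusted p = 0.0836). The CPM calls of PARP1 and GMI1 were lost without library 2 of either dose (highest adjusted p = 0.0660 and 0.132), and that of GMI1 also without library 1 of 10 cGy or library 3 of 100 cGy.

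SMR7 (AT3G27630), a cyclin-dependent kinase inhibitor, was close to the floor at 10 cGy, with 0.182, 0.0901 and 0.171 CPM, and had 0.407, 0.606 and 0.511 CPM at 100 cGy. Its difference of 0.64 (adjusted p = 0.0196) became 0.58 (adjusted p = 0.0541) after rescaling, and the CPM call was lost without library 2 of 10 cGy or without library 2 or 3 of 100 cGy (highest adjusted p = 0.115). BRCA1 (AT4G21070), a repair and signalling protein, had 6.55, 5.91 and 6.77 CPM at 10 cGy and 7.19, 9.05 and 8.62 CPM at 100 cGy. It missed the threshold at 0.34 (SE 0.12, adjusted p = 0.0512). CYCB1;1 (AT4G37490), a mitotic cyclin used as a damage reporter, differed by 0.09 with a 95% interval from -0.24 to 0.42. WEE1 (AT1G02970), a checkpoint kinase, differed by 0.13 with an interval from -0.21 to 0.47. The inhibitor genes SMR4 and SMR5 and the NAC factor genes NAC044, NAC085 and NAC103 did not pass the filter on low values.

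**Figure D2:**
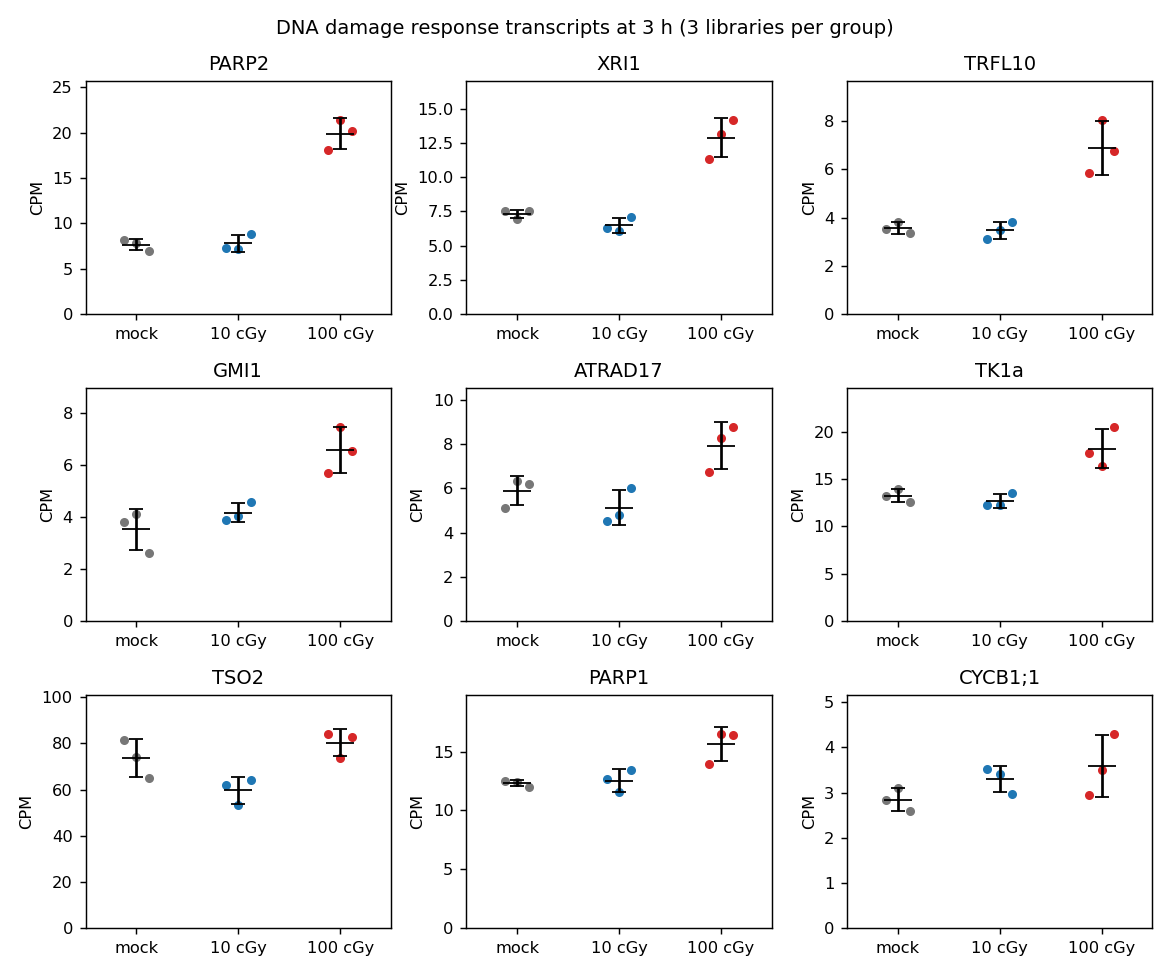
CPM of 9 DNA damage response transcripts at 3 h in each library of mock, 10 cGy and 100 cGy (points), with the mean and SD of 3 libraries (black). For PARP2 and XRI1 the 100 cGy libraries start at 18.1 and 11.3 CPM, above every mock and 10 cGy library, while CYCB1;1 overlaps between doses.

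SOG1 is known to bind a palindrome of CTT and AAG with 7 bases between them. The windows from 250 bases before to 50 bases after the gene start were searched for it in the TAIR10.1 genome, in which the motif reads the same on both strands. It lay in 3 of 18 windows of the list (16.7%) and in 10.7% of the windows of tested genes. XRI1, TRFL10, ATRAD17 and TK1a had no match in this window. The matches upstream of PARP2 and SMR7, both called with CPM, are shown from 5′ to 3′ along the gene, with CTT and AAG in capitals.
PARP2: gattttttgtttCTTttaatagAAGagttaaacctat
SMR7: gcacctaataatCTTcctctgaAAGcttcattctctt
These stretches are chr4:1049658-1049694 on the plus strand and chr3:10231586-10231622 on the minus strand. The motif ends 84 and 31 bases before the start of the respective gene, both outside the annotated gene. SMR7 holds a further match inside the gene.

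Genes of DNA repair and damage signalling, a separate list of 27 measured members, showed smaller differences. With CPM 11 were called higher and none lower, against 11.7% of all genes called higher, and after rescaling 2 were higher, against 1.68% of all genes. All 27 lay above 0 with CPM, at a median of 0.28, as did 14344 of all 18875 genes. After rescaling 24 lay above 0, against 8866 of all genes, and the median was 0.15. The 2 genes were KU70 and ATLIG4, both of the end-joining pathway that seals breaks directly. KU70 (AT1G16970), a subunit of the dimer that caps broken ends, had 15.1, 14.8 and 15.4 CPM at 10 cGy and 19.0, 21.0 and 20.6 CPM at 100 cGy. Its difference was 0.41 (SE 0.08, adjusted p = 0.00285) and 0.28 after rescaling (adjusted p = 0.0313). ATLIG4 (AT5G57160), the ligase of that pathway, differed by 0.35 (SE 0.07, adjusted p = 0.00165) and by 0.22 after rescaling (adjusted p = 0.0360). After rescaling, the call of KU70 was lost without any 1 library other than library 1 of 100 cGy (highest adjusted p = 0.151), and that of ATLIG4 without library 1 or 2 of either dose (highest adjusted p = 0.174).

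SOG1 itself (AT1G25580) had 8.95, 7.50 and 9.37 CPM at 10 cGy and 10.6, 12.9 and 12.0 CPM at 100 cGy. Mock libraries had 11.4, 10.9 and 12.8 CPM, so the higher dose lay at the level of mock and the lower dose below it. The difference of 0.44 (SE 0.11, adjusted p = 0.00930) was not called after rescaling (0.31, adjusted p = 0.0791), nor with CPM without library 2 of either dose (highest adjusted p = 0.0847). Of 18 genes of S phase and DNA replication, 2 were called higher with CPM, which is close to the 11.7% of all genes, and none after rescaling, with a median of 0.03 in that scaling.

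Several genes of the circadian clock were higher at 100 cGy. Of 21 measured clock genes, 11 were called higher and none lower with CPM, against 11.7% of all genes called higher. After rescaling 3 were called higher, namely LHY, RVE1 and PRR9, against 1.68% of all genes. LHY (AT1G01060), a MYB-type repressor at the centre of the clock, had 6.55, 6.33 and 5.50 CPM at 10 cGy and 10.5, 13.3 and 11.3 CPM at 100 cGy. Mock libraries had 7.41, 8.71 and 12.9 CPM, all above the lower dose, and the highest of them was within the range of the higher dose. The difference was 0.87 (SE 0.11, adjusted p = 5.80e-05), and 0.75 after rescaling (adjusted p = 0.000529). RVE1 (AT5G17300), a related factor that links the clock to auxin, had 1.55 to 2.18 CPM at 10 cGy and 3.77, 4.04 and 3.99 CPM at 100 cGy. It too differed by 0.87 (SE 0.12, adjusted p = 9.83e-05). Mock libraries reached at most 2.64 CPM, nearer to the lower dose. PRR9 (AT2G46790), a pseudo-response regulator that represses LHY, differed by 0.41 (SE 0.06, adjusted p = 0.000263) and by 0.28 after rescaling (adjusted p = 0.00616), which became 0.0653 without library 2 of 100 cGy.

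The partner of LHY, CCA1 (AT2G46830), had 75.0, 65.7 and 68.2 CPM at 10 cGy and 75.1, 84.2 and 77.8 CPM at 100 cGy. Its difference was 0.18 (SE 0.06, adjusted p = 0.0406) and, after rescaling, 0.05 (adjusted p = 0.716). TOC1 (AT5G61380), an evening component, was higher by 0.43 with CPM (adjusted p = 0.0100) and differed by 0.30 after rescaling (adjusted p = 0.0708). Without library 2 of 100 cGy the CPM calls of CCA1 (adjusted p = 0.244) and TOC1 (adjusted p = 0.0684) were lost. They were also lost without library 2 of 10 cGy, and that of CCA1 without library 3 of either dose. The G box CACGTG, a site known to be bound by light-regulated factors, occurs in the same window of LHY, RVE1 and PRR9, in 11 of 21 clock genes and in 8.95% of the windows of tested genes. One match of each of the 3 genes is shown along the gene, with the G box in capitals.
LHY: ctacaatatcacCACGTGtcgatctgcgat
RVE1: gagaaagagcgaCACGTGgcaaagatggac
PRR9: ttaggttaatgaCACGTGttaaggtggacc
They are chr1:37934-37963 on the minus strand, chr5:5693086-5693115 on the minus strand and chr2:19232423-19232452 on the plus strand of TAIR10.1.

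Of 10 measured cold-responsive genes, 5 were called higher at 100 cGy with CPM and 3 after rescaling, GolS3, LTI78 and COR15B, against 11.7% and 1.68% of all genes. All 10 lay above 0 under both scalings, with a median of 0.41 with CPM. Of all 18875 genes, 14344 lay above 0 with CPM and 8866 after rescaling. GolS3 (AT1G09350), a galactinol synthase of the raffinose pathway, had 5.98, 5.55 and 8.48 CPM at 10 cGy and 13.6, 18.0 and 14.2 CPM at 100 cGy. With mock at 10.2, 8.65 and 7.48 CPM, mock lay between both doses. The difference was 1.15 (SE 0.15, adjusted p = 7.36e-05) and 1.02 after rescaling (adjusted p = 0.000570). COR15B (AT2G42530), a chloroplast stroma protein that protects membranes in freezing, had 97.0, 133 and 117 CPM at 10 cGy and 160, 225 and 187 CPM at 100 cGy. Mock libraries had 99.7, 134 and 115 CPM, at the level of the lower dose. Its difference was 0.71 (SE 0.14, adjusted p = 0.00189), and 0.58 after rescaling (adjusted p = 0.0148), where the call was lost without library 1 of 10 cGy (adjusted p = 0.0898) or library 2 of 100 cGy (adjusted p = 0.144).

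LTI78 (AT5G52310), also known as RD29A and used as a reporter of cold and drought, was spread widely within groups. It had 162, 284 and 173 CPM at 10 cGy and 326, 542 and 354 CPM at 100 cGy, a difference of 0.99 (SE 0.25, adjusted p = 0.0103). The call was lost without library 1 of 10 cGy (adjusted p = 0.0574) or library 2 of 100 cGy (adjusted p = 0.108). After rescaling the call (adjusted p = 0.0434) was also lost without library 3 of either dose. DREB1A (AT4G25480), also known as CBF3 and an activator of these genes, had 5.55 to 6.46 CPM at 10 cGy and 8.36 to 10.7 CPM at 100 cGy. The groups did not overlap, but the difference of 0.61 (SE 0.22) had an adjusted p of 0.0641.

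Of 21 measured genes of salicylate and immunity, 8 were called higher and none lower with CPM, and 1 after rescaling, against 11.7% and 1.68% of all genes called higher. The list medians were 0.46 and 0.32. The gene was PR5 (AT1G75040), an antimicrobial thaumatin-like protein, with 45.3, 36.6 and 62.3 CPM at 10 cGy and 71.7, 96.8 and 68.9 CPM at 100 cGy. Its difference was 0.73 (SE 0.17, adjusted p = 0.00790), and 0.60 after rescaling (adjusted p = 0.0459), and the call was lost without library 2 of 10 cGy or of 100 cGy (highest adjusted p = 0.0896 with CPM). After rescaling it was also lost without library 1 of either dose. EDS1 (AT3G48090), a lipase-like hub of resistance signalling, differed by 0.51 with CPM (SE 0.14, adjusted p = 0.0178) and by 0.38 after rescaling (adjusted p = 0.118). Its CPM call was lost without library 2 of 10 cGy (adjusted p = 0.126) and without library 2 or 3 of 100 cGy. PR1 (AT2G14610), a common marker of salicylate, overlapped between the doses, at 1.17 to 12.7 CPM at 10 cGy and 0.319 to 4.25 CPM at 100 cGy.

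Among transcription factors of early defence, WRKY53 (AT4G23810), which promotes leaf senescence and defence, had 1.79, 2.23 and 2.42 CPM at 10 cGy and 5.84, 6.45 and 6.63 CPM at 100 cGy. Mock libraries had 1.32, 1.86 and 3.16 CPM, so only the higher dose stood out. The difference was 1.37 (SE 0.35, adjusted p = 0.0121) and 1.25 after rescaling (adjusted p = 0.0377), and WRKY53 was another of the 5 genes called in the fit of 6 libraries. Without library 2 of 100 cGy its adjusted p was 0.0639, and after rescaling the call was lost without any 1 library other than library 1 of 100 cGy (highest adjusted p = 0.154). WRKY38 (AT5G22570), a factor of basal defence, differed by 1.37 with CPM (SE 0.38, adjusted p = 0.0194) and by 1.26 after rescaling (adjusted p = 0.0539). Its CPM call was lost without library 2 of 10 cGy (adjusted p = 0.0860) and without library 2 or 3 of 100 cGy. The 48 measured WRKY genes were grouped by symbol after the values had been seen. Of them 7 were called higher and none lower with CPM, near the 11.7% of all genes called higher. After rescaling 2 were higher, against 1.68% of all genes.

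Groups of receptors were formed by symbol or product name after the values had been seen, and are given as counts and medians with no test. Beside them, 11.7% of all genes were called higher with CPM and 1.68% after rescaling. Of 43 measured receptor-like protein genes, 14 were called higher with CPM and 4 after rescaling, and none lower. Of 31 cysteine-rich receptor-like kinase genes, 14 were called higher with CPM and 3 after rescaling. Of 65 disease resistance genes of the TIR-NBS-LRR class, which encode intracellular immune receptors, 32 and 5 were called higher. The median differences were 0.34, 0.49 and 0.31 with CPM, and 0.22, 0.38 and 0.18 after rescaling. RLP33 (AT3G05660), a receptor-like protein of the cell surface, had 3.97, 4.26 and 3.90 CPM at 10 cGy and 7.46, 10.0 and 9.38 CPM at 100 cGy. Its difference was 1.05 (SE 0.15, adjusted p = 0.000214), and its neighbour RLP32 (AT3G05650) differed by 0.64 (SE 0.11, adjusted p = 0.000549). Both calls held without any 1 library under both scalings, as was known when the genes were chosen. SNC1 (AT4G16890), an immune receptor of the TIR type, had 232, 210 and 245 CPM at 10 cGy, 289, 259 and 268 CPM in mock and 295, 334 and 276 CPM at 100 cGy. For SNC1 every library of the lower dose was below mock, and the higher dose overlapped mock. The difference between the doses was 0.39 (SE 0.07, adjusted p = 0.000761) and 0.26 after rescaling (adjusted p = 0.0314). The rescaled call was lost without library 1 or 2 of either dose (highest adjusted p = 0.227). Genes of such families are similar in sequence, so reads may be split between copies.

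The largest rise among the genes called was in IGMT2 (AT1G21120), whose product is an O-methyltransferase that acts on indole glucosinolates. It had 0.378, 0.390 and 0.329 CPM at 10 cGy, 0.849, 0.964 and 1.37 CPM in mock and 2.02, 3.43 and 2.43 CPM at 100 cGy. The lower dose was below mock and the higher dose above it. The difference was 1.83 (SE 0.36, adjusted p = 0.00237), and it was 1.73 after rescaling (adjusted p = 0.00687). Genes at such levels rest on few reads, and the highest adjusted p without 1 library was 0.0303 with CPM and, without library 2 of 100 cGy, 0.0743 after rescaling. HMGB2 (AT1G20693), a chromatin protein of the high mobility group, was a firmly expressed gene among the rises, with 103, 112 and 113 CPM at 10 cGy and 146, 201 and 190 CPM at 100 cGy. Mock libraries had 112, 114 and 119 CPM, at the level of the lower dose. The difference was 0.70 (SE 0.09, adjusted p = 5.80e-05). It held without any 1 library, as was known when the gene was chosen. EXO70E2 (AT5G61010), an exocyst subunit, had 24.8, 24.3 and 24.0 CPM at 10 cGy and 36.8, 40.9 and 36.1 CPM at 100 cGy. The 10 cGy libraries hardly varied, and the difference was 0.63 (SE 0.07, adjusted p = 7.31e-06).

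**Figure D3:**
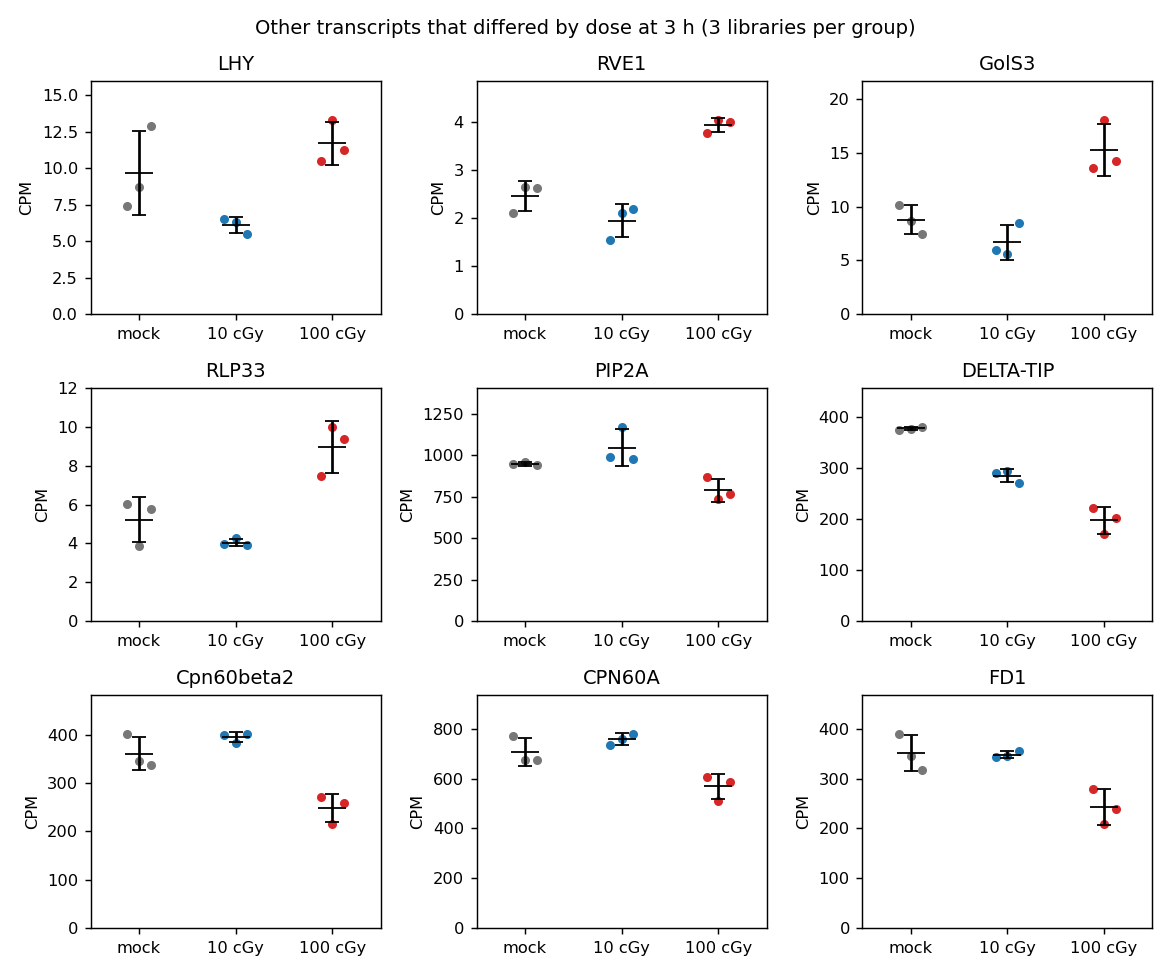
CPM at 3 h in each library (points) with the mean and SD of 3 libraries per group (black) for transcripts that were higher (LHY, RVE1, GolS3, RLP33) or lower (PIP2A, DELTA-TIP, Cpn60beta2, CPN60A, FD1) at 100 cGy. The 3 libraries of 100 cGy do not overlap with those of 10 cGy in any of these 9 genes, such as 10.5 to 13.3 against 5.50 to 6.55 CPM for LHY. The 9 genes were picked from these same values, so this is a description. Of all genes, 24.0% had the 100 cGy libraries all above those of 10 cGy and 3.23% all below.

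Some chaperone genes of the chloroplast and of heat stress were called lower at 100 cGy, while other chaperone genes were not. A group of 14 measured genes with a product name of the Cpn60 chaperonin family was formed after the values had been seen. Such names need not give the compartment, so the group is not confined to the chloroplast. With CPM 2 were called lower and 1 higher, against 0.821% and 11.7% of all genes. After rescaling 3 were lower and none higher, against 3.16% and 1.68%. In the Cpn60 group 9 lay above 0 and 5 below with CPM, at a median of 0.03. Of all 18875 genes, 14344 lay above 0 with CPM. Cpn60beta2 (AT3G13470), a subunit of the chloroplast chaperonin that folds Rubisco, had 400, 384 and 403 CPM at 10 cGy and 272, 215 and 259 CPM at 100 cGy. Mock libraries had 401, 345 and 338 CPM, so the higher dose was below both other groups. It fell by 0.68 (SE 0.10, adjusted p = 0.000150), and by 0.81 after rescaling (adjusted p = 0.000126). CPN60A (AT2G28000), the alpha subunit of the same complex, had 735, 759 and 781 CPM at 10 cGy and 607, 510 and 588 CPM at 100 cGy. It fell by 0.42 (SE 0.08, adjusted p = 0.00267). CR88 (AT2G04030), a chloroplast chaperone of the HSP90 type, had 482, 505 and 519 CPM at 10 cGy and 368, 326 and 377 CPM at 100 cGy, a difference of -0.49 (SE 0.10, adjusted p = 0.00223). All these calls held without any 1 library under both scalings, an outcome known when the genes were chosen.

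Of 11 measured genes of the heat shock list, 3 were called lower and none higher under either scaling, against 0.821% and 3.16% of all genes called lower. The list median was -0.41 with CPM and -0.53 after rescaling, but 5 of the 11 lay above 0 with CPM, up to 0.85 for BIP3, an HSP70-type gene that did not pass (adjusted p = 0.123). Of 36 measured genes with a heat shock product name, a wider group formed after the values had been seen, 5 were called lower and 2 higher with CPM, and 8 lower and none higher after rescaling, with 15 above 0 with CPM. The 3 genes were HSP70 (AT3G12580), HSP90.1 (AT5G52640) and HSP101 (AT1G74310), cytosolic chaperones that refold or dissolve damaged protein. HSP70 had 35.4 to 58.3 CPM at 10 cGy, 29.3, 28.8 and 37.0 CPM in mock and 28.3, 19.3 and 23.2 CPM at 100 cGy. Library 2 of 10 cGy was the highest of these, and the difference was -0.86 (SE 0.21, adjusted p = 0.00976). HSP101 had 14.9, 16.7 and 15.6 CPM at 10 cGy and 10.8, 10.6 and 10.9 CPM at 100 cGy, a difference of -0.53 (SE 0.14, adjusted p = 0.0133). With CPM each of the 3 calls was lost without library 2 of 10 cGy and also without library 2 of 100 cGy, with adjusted p of 0.0883 for HSP70, 0.118 for HSP90.1 and 0.0709 for HSP101 in the latter case. That of HSP90.1 was also lost without library 1 of 10 cGy or library 3 of 100 cGy. AT1G07400, a gene of the HSP20-like chaperone family outside the list, had 3.82, 5.22 and 3.32 CPM at 10 cGy and 1.30 ± 0.18 CPM (SD, n = 3) at 100 cGy. Its mock libraries had 0.849, 1.76 and 1.37 CPM, so here the lower dose stood above both other groups, with a difference of -1.35 (SE 0.28, adjusted p = 0.00307).

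Several aquaporins, the water channels of the plasma membrane and vacuole, were lower at 100 cGy. Of 21 measured genes with such a product name, a group formed after the values had been seen, 7 were called lower with CPM and 9 after rescaling, against 0.821% and 3.16% of all genes called lower, and none higher. Medians were -0.18 and -0.32. PIP2A (AT3G53420), of the plasma membrane, had 993, 1172 and 976 CPM at 10 cGy, 946, 959 and 939 CPM in mock and 867, 735 and 766 CPM at 100 cGy. It fell by 0.41 (SE 0.06, adjusted p = 0.000223). TIP2 (AT3G26520), of the vacuole membrane, had 1044, 1156 and 949 CPM at 10 cGy and 918, 708 and 786 CPM at 100 cGy, a difference of -0.39 (SE 0.08, adjusted p = 0.00227). DELTA-TIP (AT3G16240), also of the vacuole but not counted in that group because its product name is spelled differently, had 289, 294 and 270 CPM at 10 cGy and 221, 170 and 201 CPM at 100 cGy. Its mock libraries were higher still, at 375, 376 and 380 CPM. The 3 groups did not overlap, though 10 cGy against mock was called with CPM (adjusted p = 0.0207) and not after rescaling (adjusted p = 0.0609). Its difference between the doses was -0.53 (SE 0.09, adjusted p = 0.000781).

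For photosynthesis genes the scaling decided how many were called. Of 22 measured genes of photosynthesis and light harvesting, 1 was called higher under both scalings, and 3 were called lower with CPM and 9 after rescaling, against 0.821% and 3.16% of all genes called lower. The list medians were -0.09 and -0.22, and with quantile normalisation the list median less that of all genes turned to 0.0074. In each library the median of the list, set against the library's own median gene, was -0.03 in library 1 of 100 cGy but -0.34 and -0.30 in libraries 2 and 3, the same libraries in which abundant transcripts took a low share. The part of that composition in these falls was not tested. RBCS3B (AT5G38410), a small subunit of Rubisco, had 6093, 5614 and 6015 CPM at 10 cGy and 5346, 4882 and 4913 CPM at 100 cGy, a difference of -0.23 (SE 0.06, adjusted p = 0.0193) that was not called without library 2 (adjusted p = 0.112) or 3 of 100 cGy or without library 1 or 3 of 10 cGy. FD1 (AT1G10960), a leaf ferredoxin that carries electrons from photosystem I, had 343, 345 and 356 CPM at 10 cGy and 279, 209 and 240 CPM at 100 cGy. FD1 fell by 0.53 (SE 0.10, adjusted p = 0.00127) and held without any 1 library under both scalings, an outcome known when it was chosen. It is not a member of the list of 22 genes, in which 0 falls held in this way. In the opposite direction, ELIP2 (AT4G14690), an early light-induced protein of the light-stress response, had 2.21, 2.91 and 2.39 CPM at 10 cGy and 3.75, 8.00 and 5.14 CPM at 100 cGy. It was called higher at 0.98 (SE 0.25, adjusted p = 0.0138), but not without library 1 of 10 cGy (adjusted p = 0.0533) or library 2 of 100 cGy (adjusted p = 0.140).

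Single genes outside these groups were also called lower. AT5G12110, annotated as an elongation factor 1-beta of protein synthesis, had 35.1, 34.0 and 34.0 CPM at 10 cGy, 33.2, 32.3 and 30.4 CPM in mock and 18.5, 19.1 and 23.1 CPM at 100 cGy. It fell by 0.76 (SE 0.10, adjusted p = 5.95e-05) and by 0.89 after rescaling (adjusted p = 2.28e-06). ADT6 (AT1G08250), an arogenate dehydratase of phenylalanine synthesis, had 11.1, 12.2 and 10.4 CPM at 10 cGy and 10.3, 4.84 and 3.97 CPM at 100 cGy. Its fall of 0.88 (SE 0.17, adjusted p = 0.00208) lay in libraries 2 and 3, while library 1 was next to the lower dose.

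For genes of zinc and iron transport, jasmonate and ethylene, few or no members were called between the doses at 3 h. Of 11 measured genes of zinc shortage, 1 was called higher with CPM, near the 11.7% of all genes. After rescaling 1 was called lower, against 3.16% of all genes. ZIP5 (AT1G05300), a zinc transporter, had 33.9, 33.9 and 48.0 CPM at 10 cGy and 40.8, 28.5 and 39.2 CPM at 100 cGy. Mock libraries had 9.54, 10.2 and 11.4 CPM, below every irradiated library. The doses overlapped, and their difference was -0.09 with a 95% interval from -0.41 to 0.23. ZIP4 (AT1G10970), another zinc transporter, differed by -0.27 with an interval from -0.64 to 0.10. IRT3 (AT1G60960), a transporter of zinc and iron, had 66.8, 54.5 and 79.8 CPM at 10 cGy and 49.2, 37.7 and 57.1 CPM at 100 cGy. Its difference of -0.48 (SE 0.17) was not called with CPM (adjusted p = 0.0656) and was called lower after rescaling at -0.61 (adjusted p = 0.0380), a call lost without library 1 or 3 of 10 cGy or library 2 of 100 cGy (highest adjusted p = 0.287).

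Of 15 measured genes of iron status, none was called in either direction under either scaling (limma, 0 with an unadjusted p under 0.05). In 1 of the 15 all 3 libraries of 100 cGy lay above those of 10 cGy, against 24.0% of all genes. The iron-deficiency factor gene bHLH38 (AT3G56970) had 1.03, 1.00 and 3.04 CPM at 10 cGy and 1.53, 1.32 and 1.24 CPM at 100 cGy. Mock libraries had 6.90, 5.14 and 7.92 CPM, above every irradiated library. Its dose difference was -0.11 with an interval from -0.95 to 0.72. None of 25 jasmonate genes was called between doses by limma under either scaling (0 had an unadjusted p under 0.05 with CPM), with a median of 0.05 and values from -1.03 to 0.37. Against mock their median was 1.04 at 10 cGy and 0.96 at 100 cGy, and these values share the mock libraries. Against mock with CPM, 1 of the 25 was called higher at 10 cGy and 4 at 100 cGy, beside 0.774% and 10.6% of all genes. Libraries of 10 cGy differed, and relative to each library's median gene the list median of library 3 of 10 cGy was -0.65, below library 3 of mock at -0.56, both set against the mean of the 10 cGy libraries. Of 22 ethylene synthesis and signalling genes 2 were called higher with CPM, near the 11.7% of all genes, and none after rescaling. EIN3 (AT3G20770), the transcription factor of that pathway, differed by 0.08 with an interval from -0.07 to 0.22. ERF5 (AT5G47230), an ethylene response factor of defence, had 1.30, 0.840 and 1.13 CPM at 10 cGy and 2.71, 2.26 and 2.01 CPM at 100 cGy. It was called higher at 0.83 (SE 0.21, adjusted p = 0.0121), but not without library 2 of 10 cGy (adjusted p = 0.0749) or of 100 cGy (adjusted p = 0.0559). After rescaling its adjusted p was 0.0443, and the call was lost without each of the 6 libraries in turn.

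**Figure D4:**
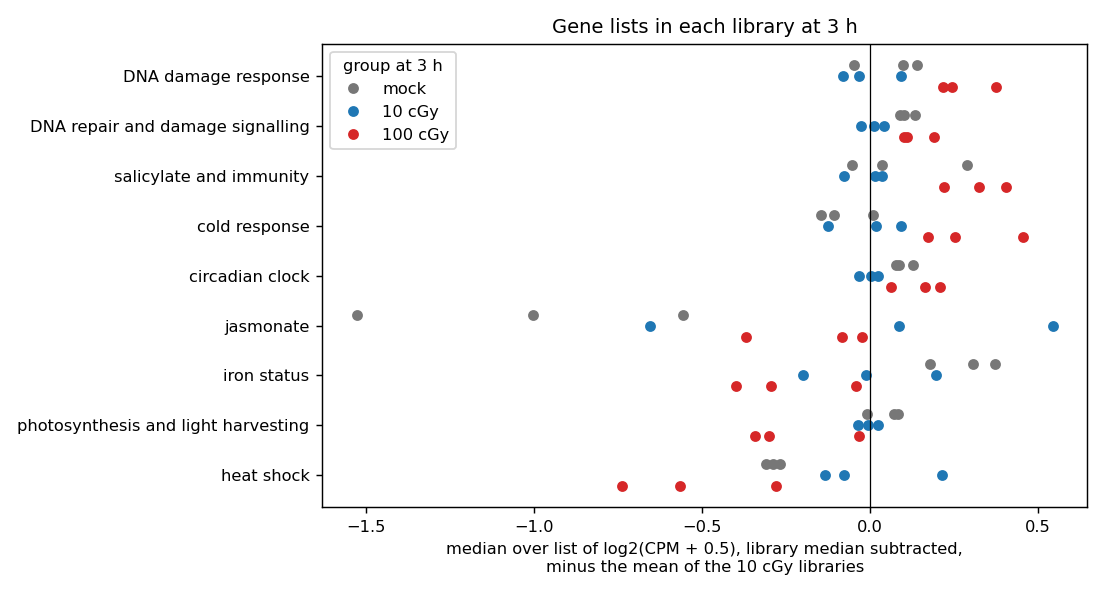
Median over each gene list of log2(CPM + 0.5) at 3 h, less the median of that library's tested genes and less the mean of the 10 cGy libraries; each point is 1 library. For the DNA damage response the 100 cGy libraries lie at 0.22, 0.24 and 0.37, above those of 10 cGy at -0.08 to 0.09, while the jasmonate, iron and photosynthesis lists overlap between the doses.

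Summed with CPM as deposited, markers of the main leaf cells overlapped between the dose groups. The sums were not rescaled, so they do not show which groups overlap after median ratios. In that scaling the single differences of the 3 mesophyll and 3 epidermis markers all lay below 0. Those of the 3 guard cell markers lay above 0. Of all 18875 genes, 10007 lay below 0 after rescaling. The summed CPM of 3 mesophyll markers was 17753 to 18408 at 10 cGy and 17457 to 18075 at 100 cGy, and that of 3 epidermis markers was 380 to 464 and 410 to 440. The sum of 3 guard cell markers did not overlap, at 27.1 to 31.8 and 36.0 to 37.4 CPM (exact permutation p = 0.1, two-sided, the smallest that 3 against 3 libraries allow). The sum of 4 root markers did not overlap either. It was 118 to 132 CPM at 10 cGy and 96.7 to 115 CPM at 100 cGy (exact permutation p = 0.1, two-sided). Their part in the results was not tested. All 5 flower markers were too low to be tested, with a sum under 1 CPM in each library.

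The dose difference at 3 h was set against that at 1 h by an interaction term. It passed in the same direction under both scalings for 206 genes (1.09%). XRI1 and TSO2 differed between doses less at 3 h than at 1 h. For XRI1 the difference was 0.93 at 3 h and 1.41 at 1 h (difference -0.48, adjusted p = 0.0391), and for TSO2 it was 0.43 and 1.00 (difference -0.57, adjusted p = 0.0100). For PARP2 it was 1.30 and 1.58, and this change of -0.28 did not pass (adjusted p = 0.365). At 24 and 72 h the dose difference of PARP2 was 0.38 and 0.28, and that of XRI1 was -0.16 and -0.12.

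Other transcripts differed by dose at 3 h more than at 1 h. LHY differed by 0.05 at 1 h (difference 0.82, adjusted p = 0.00545), while RVE1 was at -0.58 at 1 h and 0.87 at 3 h (difference 1.45, adjusted p = 3.33e-05). PIP2A was at 0.31 at 1 h and at -0.41 at 3 h (difference -0.71, adjusted p = 3.33e-05), and Cpn60beta2 at -0.02 and -0.68 (difference -0.65, adjusted p = 0.00813). HMGB2 was at 0.06 at 1 h and 0.70 at 3 h (difference 0.64, adjusted p = 0.00643).

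**Figure D5:**
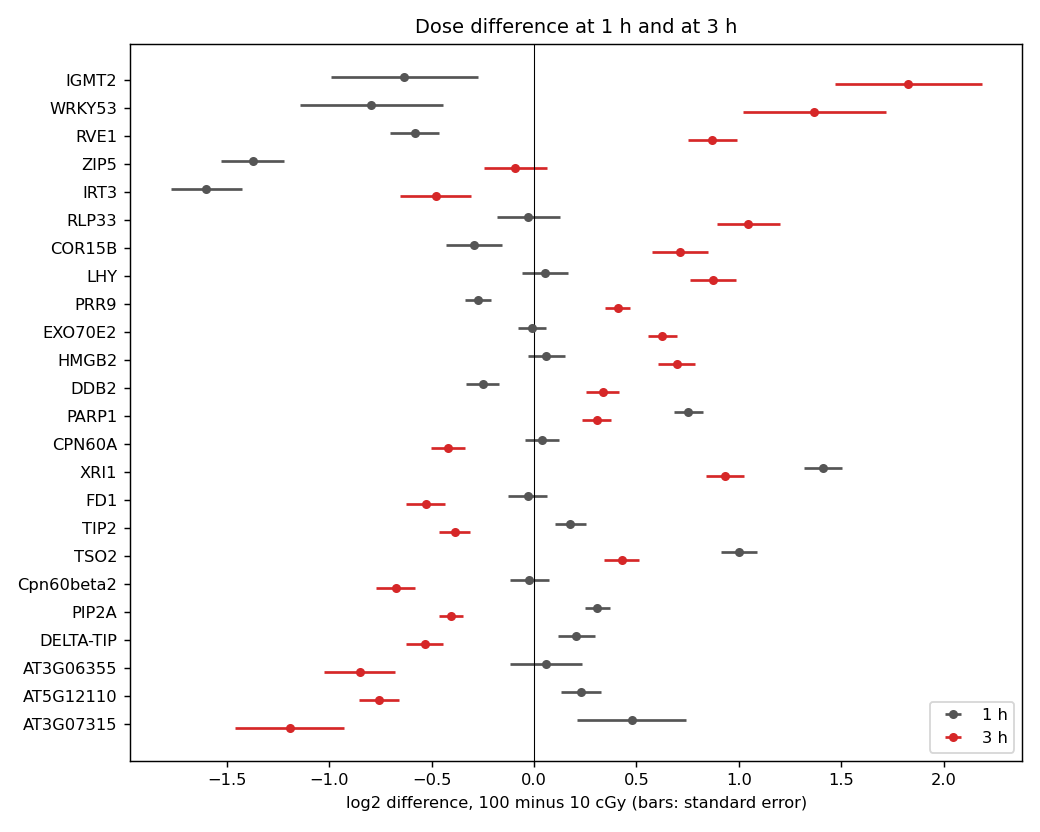
Log2 difference (100 minus 10 cGy, CPM) at 1 h (grey) and at 3 h (red), with its standard error, for the 24 named genes whose interaction passed under both scalings. XRI1, TSO2 and PARP1 lie further right at 1 h, while RVE1, LHY, WRKY53 and IGMT2 lie further right at 3 h.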

How the data were processed

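RNA of 36 libraries (12 groups of 3) was measured by poly(A) sequencing. Per the submitters' processing notes, which give no order or role, Trimmomatic 0.32, STAR 2.5.2b, RSEM 1.2.28 and TAIR10 were used. The authors deposited CPM values for 33977 genes, with each library summing to 1000000. The other deposited file, the natural log of CPM + 1, differed from the first by at most 4.11e-09 and was not used further. Between 88.8% and 90.6% of CPM values were whole multiples of the smallest step (tolerance 0.02 counts), so no count test was run. All columns carried a sample name, and 0 were left unused.

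Genes with at least 1 CPM in at least 3 libraries were tested in limma 3.58.1 (R 4.3.3) on log2(CPM + 0.5), with 1 mean per group, an intensity trend and Benjamini-Hochberg adjustment over 18875 genes. Intervals of 95% use 24 degrees of freedom. Single sums were compared by two-sided exact permutation. This and other steps outside limma used Python 3.11.15, numpy 2.4.6, pandas 2.3.3, scipy 1.17.1 and matplotlib 3.10.9. The scripts were tested on simulated data. Median-ratio rescaling is an alternative scaling, and the closing section gives it with the others. Sequences come from TAIR10.1, whose annotation matched 32548 of the genes. No coordinates were converted. One gene of the DNA damage response list is counted in the list but not reported here.

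The members and the 25 gene lists and 9 marker lists were chosen with earlier results of these data known. Named genes include the 10 largest called in each direction with groups that do not overlap. They also include up to 4 called members per list by p and a list of genes of interest. A further 18 were chosen after their values were seen. They are ATRAD17, WEE1, CCA1, TOC1, DREB1A, PR1, RLP32, RLP33, SNC1, HMGB2, EXO70E2, Cpn60beta2, CPN60A, CR88, FD1, PIP2A, TIP2 and DELTA-TIP. Also named were all 45 genes whose call held under both scalings whichever library of the comparison was left out. These 45 were likewise chosen after their values were seen, and some of them also fall under the other choices. The labels do not say whether equal replicate numbers share an exposure or batch, and the main fit left libraries unpaired.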

Additional observations from a re-analysis of the deposited data

Results flagged for a closer look

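For 24 named genes the dose difference at 3 h minus that at 1 h passed an interaction test (limma, adjusted over 18875 genes) in the same direction under both scalings. Values are log2 differences with CPM.

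Of the named DNA damage response genes, XRI1, TSO2 and PARP1 had a smaller dose difference at 3 h. The change was -0.48 for XRI1 (adjusted p = 0.0391), -0.57 for TSO2 (adjusted p = 0.0100) and -0.45 for PARP1 (adjusted p = 0.0131). DDB2 (AT5G58760), which recognises ultraviolet lesions, moved the other way by 0.58 (adjusted p = 0.00554), from -0.25 at 1 h to 0.33 at 3 h.

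Named clock, cold and defence genes among the 24 had a larger dose difference at 3 h. The change was 0.82 for LHY (adjusted p = 0.00545), 1.45 for RVE1 (adjusted p = 3.33e-05) and 0.68 for PRR9 (adjusted p = 8.95e-05). COR15B changed by 1.01 (adjusted p = 0.00524), IGMT2 by 2.46 (adjusted p = 0.00813) and WRKY53 by 2.16 (adjusted p = 0.0146). All these genes but LHY lay below 0 at 1 h, and all lay above 0 at 3 h. RLP33 changed by 1.07 (adjusted p = 0.00727), EXO70E2 by 0.64 (adjusted p = 0.00101) and HMGB2 by 0.64 (adjusted p = 0.00643).

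The aquaporin and chloroplast genes among the 24 that were lower at 3 h lay near or above 0 at 1 h. The change was -0.71 for PIP2A (adjusted p = 3.33e-05), -0.56 for TIP2 (adjusted p = 0.00458) and -0.74 for DELTA-TIP (adjusted p = 0.00245). It was -0.65 for Cpn60beta2 (adjusted p = 0.00813), -0.46 for CPN60A (adjusted p = 0.0304) and -0.50 for FD1 (adjusted p = 0.0371).

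The zinc transporter ZIP5 changed by 1.28 (adjusted p = 0.00219), from -1.37 at 1 h to -0.09 at 3 h, and IRT3 by 1.12 (adjusted p = 0.0118), from -1.60 to -0.48. AT5G12110 changed by -0.99 (adjusted p = 0.000277), AT3G06355 by -0.91 (adjusted p = 0.0379) and AT3G07315 by -1.67 (adjusted p = 0.0143).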

How the results depend on the processing

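Against 2372 calls (2217 higher, 155 lower), median ratios gave 914 (318 and 596), the upper quartile 826 (451 and 375) and quantile normalisation, added after seeing the data, 633 (363 and 270). With the 9 libraries of 3 h the count was 69 (58 and 11) and with 6 libraries 5 (5 and 0). Without 1 library it ranged from 427 to 4342 (392 to 4070 higher, 35 to 272 lower). After median-ratio rescaling the ranges were 23 to 498 higher and 58 to 1153 lower, with 4 and 2 from 6 libraries and 4 and 7 from 9. The 664 interaction calls became 303, 321 and 257 under median ratios, the upper quartile and quantile normalisation. They ranged from 199 to 1776 without 1 of the 6 irradiated libraries of 3 h, and no library of 1 h was left out. Fewer libraries in a fit leave fewer degrees of freedom; other causes were not tested. The list median less that of all genes stayed above 0 for the DNA damage response (0.32; 0.19 with a pseudocount of 2; 0.21 to 0.35 without 1 library), salicylate (0.34; 0.25 to 0.38), cold (0.30; 0.44 with quantile normalisation; 0.22 to 0.47) and clock genes (0.14; 0.21 with quantile normalisation). For photosynthesis it was -0.20 and turned to 0.0074 with quantile normalisation. MOM (AT1G08060) turned to -0.012 after median ratios without library 1 of 100 cGy. Of 129 named genes, 40 lost their call under median ratios, 110 with 6 libraries and 0 without organelle genes. The 129 include the 45 genes kept because their call held under both scalings, which could not lose it under median ratios. Same-numbered libraries correlated at -0.12, -0.02 and 0.10, so numbers do not pair them; the replicate block gave 1971 calls (1837 and 134), 475 interaction calls and, after median ratios, 240 and 445. Depth limits genes near the floor, such as SMR7.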
